A study of Mus musculus with 2 samples.

Results

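Heat shock high DETCs were dendritic epidermal T cells chosen by a measured value, the share of UMIs (unique molecular identifiers, each marking a single captured mRNA molecule) that came from the inducible heat shock genes Hspa1a and Hspa1b, which was at least 1% in each. They numbered 574 of 8489 DETCs, themselves gated from 10203 cells, and 354 came from the isotype library and 220 from the Skint1 antibody library. A barcode counted as a cell where 500 to 2500 genes were found and mitochondrial UMIs did not pass 12%, and as a DETC with at least 3 UMIs of Trdc, at least 3 UMIs of Cd3d, Cd3e and Cd3g in sum and 0 UMIs of Trac, Cd4, Cd8a and Cd8b1. The reference within each library was the 1925 isotype and 3101 Skint1 antibody DETCs in which the Hspa1a and Hspa1b share was below 0.2%, called low DETCs here, and 1265 and 1624 DETCs lay between the limits. Ear epidermis was taken from 8-week-old female wild-type FVB/NJ mice 7 d after intradermal isotype control antibody or antibody to Skint1, a keratinocyte protein sensed by DETCs. Live CD45+ cells without EpCAM or MHC class II were sorted and 1 library was made per treatment by 10x 3' v3 chemistry. Each treatment had n = 1, and the methods state that n refers to individual mice unless a legend says otherwise. Cells had been at 37 °C for 1 h on trypsin and for a further 20 min during digestion before the sort, a step shared by both treatments. The 20 min are from the labels, and the methods give a shorter digestion.

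DETCs are γδ T cells that seed mouse epidermis before birth, carry an almost uniform Vγ5Vδ1 receptor and stay in contact with keratinocytes. The heat shock response is a rapid, conserved programme in which the transcription factor HSF1, freed when unfolded proteins occupy the chaperones that hold it back, binds heat shock elements and drives chaperone genes. Its products act as a chain, in which Hsp40 proteins such as Dnajb1 deliver unfolded clients to Hsp70 proteins such as Hspa1a and Hspa1b, Hsp110 proteins such as Hsph1 exchange the nucleotide that releases them, and Hsp90 proteins finish the folding of signalling clients. Warmth, enzymatic digestion, oxidants and activation are all known to switch it on in lymphocytes.

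The members had a depth near that of low DETCs under isotype and a lower one under Skint1 antibody. The libraries held 27272211 (isotype) and 32450957 (Skint1 antibody) UMIs over all barcodes. Members of the isotype library had a median of 4071 UMIs, 1632 genes and 5.26% mitochondrial UMIs, against 3974 UMIs, 1605 genes and 5.45% in its low DETCs. Under Skint1 antibody the medians were 3273.5 UMIs, 1382 genes and 5.58% in members and 3621 UMIs, 1496 genes and 5.59% in low DETCs. Summed over members there were 1457293 and 752449 UMIs, and over low DETCs 7874323 and 11870300. No barcode was shared between the members of both libraries, whereas 3 barcodes were shared among all DETCs. Of the members, 5 (1.41%) and 3 (1.36%) were among the barcodes with the highest doublet scores, against 2.65% and 3.77% of low DETCs. Levels are given as CPM, counts per 1000000 UMIs of the summed group, and ratios as log2 ratios of CPM. Parentheses hold 95% intervals, by the exact Poisson method for levels, the conditional binomial method for ratios and the Clopper-Pearson method for shares, all of which cover counting error only. Since each treatment had 1 library and cells are not replicates, no test was made, and the effect of treatment cannot be told apart from that of the library or the mouse. Every ratio of members over low DETCs is a description, because both groups were cut from the same cells by the readout. Values under isotype and under Skint1 antibody are those of the respective library.

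Hspa1a and Hspa1b encode the near-identical stress-inducible cytosolic Hsp70 proteins, and their values chose the members, so they are a description and not a result. The genes lie next to each other on the minus strand of chromosome 17, Hspa1a (ENSMUSG00000091971) at chr17:34969190-34972156 and Hspa1b (ENSMUSG00000090877) at chr17:34956436-34959238 (GENCODE, GRCm38). Hspa1a was at 7118 CPM (6982 to 7256) in members and 239 CPM in low DETCs of isotype mice, and at 6575 CPM (6393 to 6760.3) and 243 CPM under Skint1 antibody. Hspa1b was at 7275 and 261 CPM under isotype and at 7321 and 261 CPM under Skint1 antibody, so both genes contributed about equally. Of 50-base stretches of the Hspa1a transcript, 58.8% also occurred in the Hspa1b transcript, and of those in its last 500 bases, the end that 3' libraries read, 0% did. A member held a median of 56 UMIs of both genes (17 to 139) under isotype and 44 (12 to 125) under Skint1 antibody.

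The Hspa1a and Hspa1b share ran without a gap through the limit. Just inside it, the 5 nearest isotype members lay between 1.000% (40 of 3999 UMIs) and 1.010%, and the 5 nearest DETCs outside lay between 0.991% and 0.995%. Under Skint1 antibody the nearest members lay between 1.001% and 1.012% and the nearest cells outside between 0.987% and 0.993%. The median share over members was 1.34% and 1.30%, and the highest were 3.43% and 3.85%. All DETCs had a median of 0.159% and 0.107%. Free RNA, read from barcodes with 1 to 100 UMIs, held 0.281% Hspa1a and Hspa1b under isotype and 0.218% under Skint1 antibody, below the limit for members and above the limit for low DETCs.

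**Figure D1:**
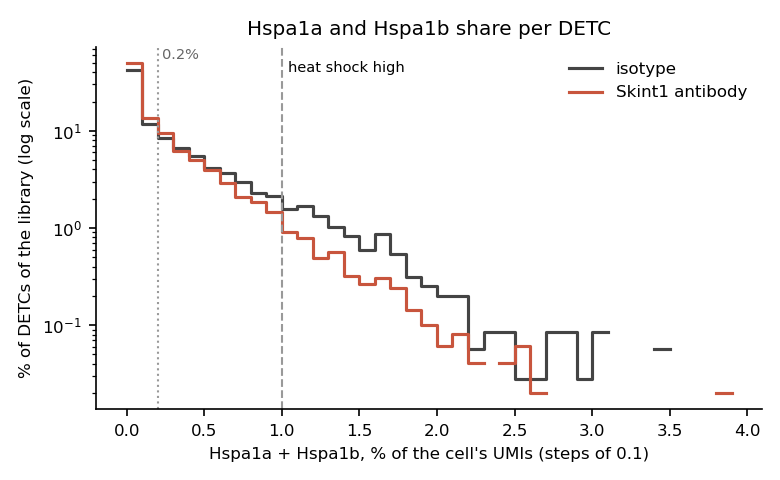
Hspa1a and Hspa1b as a percentage of a cell's UMIs (horizontal axis, steps of 0.1) against the percentage of the library's DETCs in each step (vertical axis, log scale), for the isotype (grey) and Skint1 antibody (red) libraries. The curves fall without a separate peak at the 1% limit (dashed), and above it the isotype curve lies over the Skint1 antibody curve in most steps.

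The stretches before the starts of 3 inducible genes are shown because heat shock elements, the DNA that HSF1 binds, are built from alternating GAA and TTC units spaced by any 2 bases. All are from RefSeq on GRCm38.p6 and are written 5' to 3' on the gene's strand, with capitals marking matches to at least 2 such units (GAANNTTC or TTCNNGAA on either strand). Hspa1a is shown from chr17:34972157-34972406 (minus strand), Hspb1 from chr5:135887669-135887918 (plus strand) and Hspe1 from chr1:55088059-55088076 (plus strand, 71 bases before the RefSeq start and within an annotated exon of its divergent neighbour Hspd1).
Hspa1a: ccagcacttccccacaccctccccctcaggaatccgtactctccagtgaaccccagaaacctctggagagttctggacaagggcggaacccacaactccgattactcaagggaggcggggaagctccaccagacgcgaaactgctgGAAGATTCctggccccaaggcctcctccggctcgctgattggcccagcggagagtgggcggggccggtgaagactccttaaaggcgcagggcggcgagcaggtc
Hspb1: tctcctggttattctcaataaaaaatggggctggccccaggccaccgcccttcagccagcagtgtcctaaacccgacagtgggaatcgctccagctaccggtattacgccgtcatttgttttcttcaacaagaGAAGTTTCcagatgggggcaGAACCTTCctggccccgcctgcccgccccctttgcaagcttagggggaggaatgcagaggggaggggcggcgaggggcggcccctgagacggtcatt
Hspe1: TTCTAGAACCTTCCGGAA
The same 250 bases before Hspa1b (chr17:34959239-34959488) were identical to those of Hspa1a at 247 positions (98.8%) and differed by C44T, T47C and T249G, counted from 1 at the 5' end of the printed stretch with the Hspa1a base first. Matches to 2 units occurred in 4218 of 32851 windows of all genes (12.8%), in the 250 bases before a start. Each window also held 50 bases after the start, which were not searched. Matches to 3 units (GAANNTTCNNGAA or TTCNNGAANNTTC, which contain the shorter ones) occurred in 153 windows (0.466%). The 18 bases of Hspe1 hold 2 overlapping matches to 3 units, and Hspd1, its partner in the mitochondrial chaperonin, starts on the other strand and shares them. Of 23 HSF1 chaperone genes listed as described below, 19 had a window in the table, 7 of which held 2 units (Dnaja1, Dnajb4, Fkbp4, Hspb1, Hspd1, Hspe1 and Hsph1) and 2 of which held 3 units. Counted by gene, 14.5% of 27025 genes held 2 units and 0.514% held 3. Of the 13 genes at least 2-fold higher in isotype members, 2 of 10 with a window held 2 units (Hsph1 and Jun), as did 2 of 8 among the 10 genes with the lowest ratios (Bola3 and Fut8), and Coro2a, 2-fold lower in Skint1 antibody members, held 3 units before 1 of its starts. Dnajb1 had no match in its window.

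The share of DETCs that were heat shock high was 354 of 3544, or 9.99% (9.02 to 11.02), under isotype and 220 of 4945, or 4.45% (3.89 to 5.06), under Skint1 antibody. The difference was -5.54 points (Newcombe's interval -6.70 to -4.42). With each cell thinned to 2000 UMIs, which left out 134 and 202 DETCs, the shares were 10.6% and 4.997% and the difference was -5.56 points (-6.78 to -4.37). Low DETCs, below 0.2%, made up 54.3% of isotype and 62.7% of Skint1 antibody DETCs. The libraries held close to the same share between 0.2% and 0.5% (20.5% and 20.6%), and the isotype library held more in each step above, with 15.2% and 12.3% between 0.5% and 1%, 6.41% and 3.07% between 1% and 1.5%, 2.57% and 1.05% between 1.5% and 2%, and 1.02% and 0.324% at 2% or more. Of all cells outside the DETC gate, which can include DETCs with too few UMIs of the genes it asked for, 28 of 698 (4.011%, 2.68 to 5.75) and 23 of 1016 (2.26%, 1.44 to 3.38) passed the same limit. Of cells with αβ T markers, 1 of 104 and 0 of 79 did, and the latter allows a share of up to 3.80% by the limit of 3 counts or 4.56% by the Clopper-Pearson method. Keratin-rich cells numbered 4 and 23, and none passed.

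Across genes, members differed from low DETCs of their own library in few transcripts. Among 2883 genes at 50 CPM or more under isotype, with Hspa1a and Hspa1b left out, 13 (0.451%) were at least 2-fold higher in members and 0 (0%) at least 2-fold lower. Among 2825 genes under Skint1 antibody, 6 (0.212%) were at least 2-fold higher and 3 (0.106%) at least 2-fold lower. All 6 of the latter library's higher genes were also among the 13, which is 46.2% of the isotype list and 100% of the Skint1 antibody list. They were Hsph1, Dnajb1, Hsp90aa1, Atf3, Jun and Phlda1. The other 7 were Mt1, Gzmb, Gadd45g, Xcl1, Mrps6, Cxcl2 and Hspa8, of which Mrps6 overlaps Slc5a3 on the same strand. With so few genes past 2-fold, a short list with 0 of them is near the share over all genes. The median log2 ratio over all these genes was -0.04 and -0.03, and over the 2767 genes at that level in both libraries the ratios correlated with Pearson's r of 0.466 and Spearman's rho of 0.338, which is a description across genes that are not independent and that share the cells' totals.

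**Figure D2:**
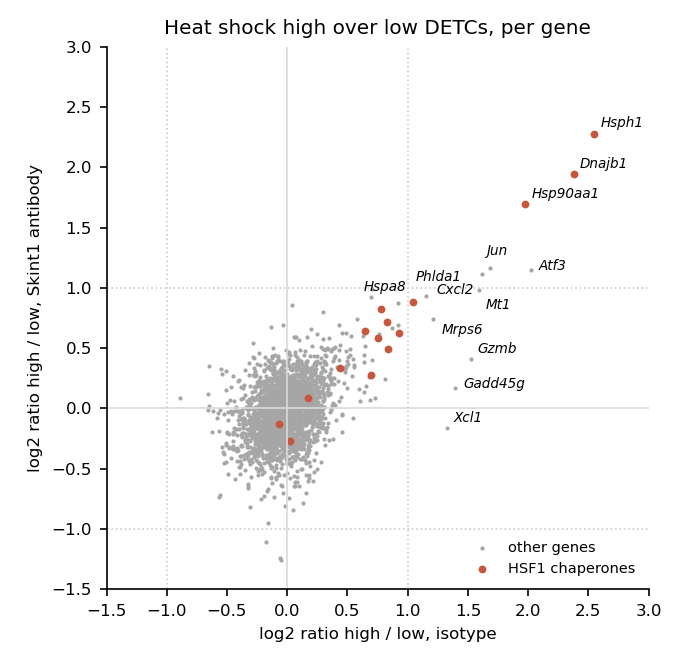
Each point is a gene at 50 CPM or more in both libraries, placed by its log2 ratio of heat shock high over low DETCs under isotype (horizontal) and the Skint1 antibody library (vertical), with HSF1 chaperone genes in red and 2-fold limits dotted. Hsph1, Dnajb1 and Hsp90aa1 lie farthest to the upper right, and Xcl1, Gadd45g and Gzmb lie far to the right at a vertical ratio of -0.17 to 0.41.

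The HSF1 chaperone list, 23 genes of the cytosolic and mitochondrial heat shock response without Hspa1a and Hspa1b, held 4 of the 13 isotype genes and 3 of the 6 Skint1 antibody genes. Of its 15 genes at 50 CPM or more, 4 and 3 were thus at least 2-fold higher, against 0.451% and 0.212% of all genes. Of the same 15, 14 had a ratio above 0 under isotype and 13 under Skint1 antibody. The median ratio was 0.78 and 0.62, against -0.04 and -0.03 over all genes. Summed over all 23 genes the level was 18596 CPM in members and 8646 CPM in low DETCs of the isotype library, and 15769 and 8315 CPM under Skint1 antibody. The same list made up 9345 and 8749 CPM of free RNA.

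Among listed chaperones at 50 CPM or more, Hsph1 and Dnajb1 had the highest ratios. Hsph1, the Hsp110 exchange factor on chromosome 5, was at 333 CPM (304 to 364) in isotype members and 56.9 CPM in low DETCs, 5.85-fold higher with a log2 ratio of 2.55 (2.36 to 2.74). Under Skint1 antibody Hsph1 was at 201 CPM (169.9 to 235) in members and 41.3 CPM in low DETCs, a log2 ratio of 2.28 (2.01 to 2.55). Dnajb1, the inducible Hsp40 on chromosome 8, was at 1669.5 and 321 CPM under isotype, a log2 ratio of 2.38 (2.30 to 2.46), compared with 1433 and 372 CPM under Skint1 antibody, a log2 ratio of 1.94 (1.85 to 2.04). Both genes were thus higher in members of each library, and the low DETCs of the libraries lay close together by comparison. Dnaja1, a constitutive Hsp40, had log2 ratios of 0.65 (0.58 to 0.72) and 0.65 (0.55 to 0.74), and Dnajb4, an Hsp40 of lower abundance, had 0.78 (0.51 to 1.03) and 0.82 (0.49 to 1.15). Hspa8, the constitutive Hsc70, was at 2866 and 1386 CPM under isotype, 1.05 (1.00 to 1.10), and at 2475 and 1339.6 CPM under Skint1 antibody, 0.89 (0.82 to 0.95). The isotype ratio of Hspa8 was under 2-fold with a limit of 0.5% (0.80), against all DETCs below 1% (0.83), in immediate early bins (0.82) and at 3000 to 5000 UMIs (0.99). Hspa4, a constitutive Hsp110, had ratios of -0.07 (-0.35 to 0.20) and -0.13 (-0.53 to 0.24) that spanned 0.

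The inducible Hsp90 gene differed by more than the constitutive one. Hsp90aa1, the inducible form, was at 3848 and 978 CPM under isotype, a log2 ratio of 1.98 (1.93 to 2.03), compared with 3206 and 990.2 CPM under Skint1 antibody, 1.69 (1.63 to 1.76). Hsp90ab1, the constitutive form, had ratios of 0.75 (0.71 to 0.80) and 0.58 (0.51 to 0.65). Of the Hsp90 cofactors, Ahsa1, which stimulates its ATPase, had 0.83 (0.56 to 1.10) and 0.49 (0.09 to 0.87), whereas Fkbp4 and Stip1 had intervals that spanned 0 in both libraries. Ubb, a polyubiquitin gene that supplies ubiquitin under stress, had 0.83 (0.79 to 0.88) under isotype and 0.72 (0.66 to 0.78) under Skint1 antibody, uncertain values because its coding sequence is a tandem repeat.

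The mitochondrial chaperonin genes Hspd1 and Hspe1, which share the stretch printed above, were higher by less. Hspd1 was at 245 and 129 CPM under isotype, a log2 ratio of 0.93 (0.75 to 1.10), compared with 175 and 114 CPM under Skint1 antibody, 0.62 (0.35 to 0.88). Hspe1 had 0.69 (0.57 to 0.81) and 0.28 (0.09 to 0.46). Both overlap on opposite strands, and 3' libraries keep the strand.

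Small heat shock genes were sparse. Hspb1 (Hsp27), with 2 printed matches before its start, was under 50 CPM over both groups, at 63.8 and 9.02 CPM under isotype (93 UMIs in members), a log2 ratio of 2.82 (2.36 to 3.29), compared with 27.9 and 12.2 CPM under Skint1 antibody (21 UMIs), 1.19 (0.46 to 1.86). The 10 members with the most Hspb1 UMIs held 73.1% and 95.2% of them, and the median member held 0. Cryab had 0 UMIs in members of both libraries. Bag3, an Hsp70 cofactor in autophagy and a textbook HSF1 target, had 48 and 18 UMIs and ratios of 0.60 (0.11 to 1.07) and 0.65 (-0.14 to 1.35). Hsf1 itself was at 15.8 and 22.4 CPM in members and low DETCs of isotype mice and at 17.3 and 21.7 CPM under Skint1 antibody, with intervals of the ratio that spanned 0.

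**Figure D3:**
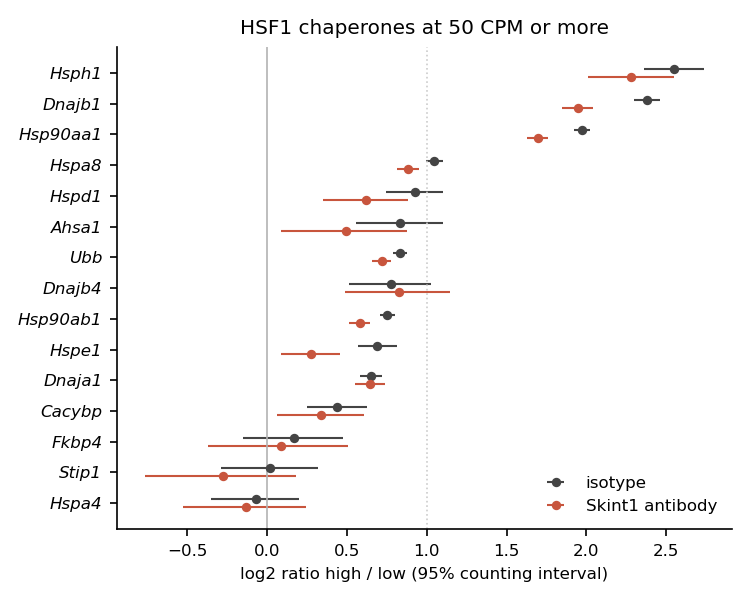
Log2 ratios of heat shock high over low DETCs (horizontal axis) for the 15 HSF1 chaperone genes at 50 CPM or more, with 95% counting intervals as bars, for the isotype (grey) and Skint1 antibody (red) libraries. Hsph1, Dnajb1 and Hsp90aa1 stand beyond the 2-fold line in both libraries, and Fkbp4, Stip1 and Hspa4 at the bottom have bars across 0.

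The chaperone levels increased with the Hspa1a and Hspa1b share below the limit as well as above it. Under isotype Hsph1 was at 56.9, 110.5, 180.2, 281.6, 394.7 and 543.7 CPM in cells below 0.2%, at 0.2 to 0.5%, 0.5 to 1%, 1 to 1.5%, 1.5 to 2% and 2% or more. Under Skint1 antibody the same steps gave 41.3, 79.7, 117.9, 196.6, 192.5 and 267.8 CPM, and the last value rests on 14 UMIs (146.4 to 449.4). Cells well below the limit thus already carried more Hsph1 than low DETCs. Dnajb1 went from 321.2 to 2274 CPM and from 372.1 to 2583 CPM between the first and last steps, Hsp90aa1 from 978.5 to 5643 CPM and from 990.2 to 4668 CPM, and Hspa8 from 1386 to 4005 CPM and from 1339.6 to 3348 CPM. Trdc, which encodes the δ chain's constant region, lay between 4303 and 4862 CPM over all steps of the isotype library and between 3118 and 3938 CPM under Skint1 antibody. Crip1, a small LIM protein of lymphocytes that was chosen after its values were seen, went the other way, from 3774 to 2381 CPM and from 4286 to 2717 CPM.

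**Figure D4:**
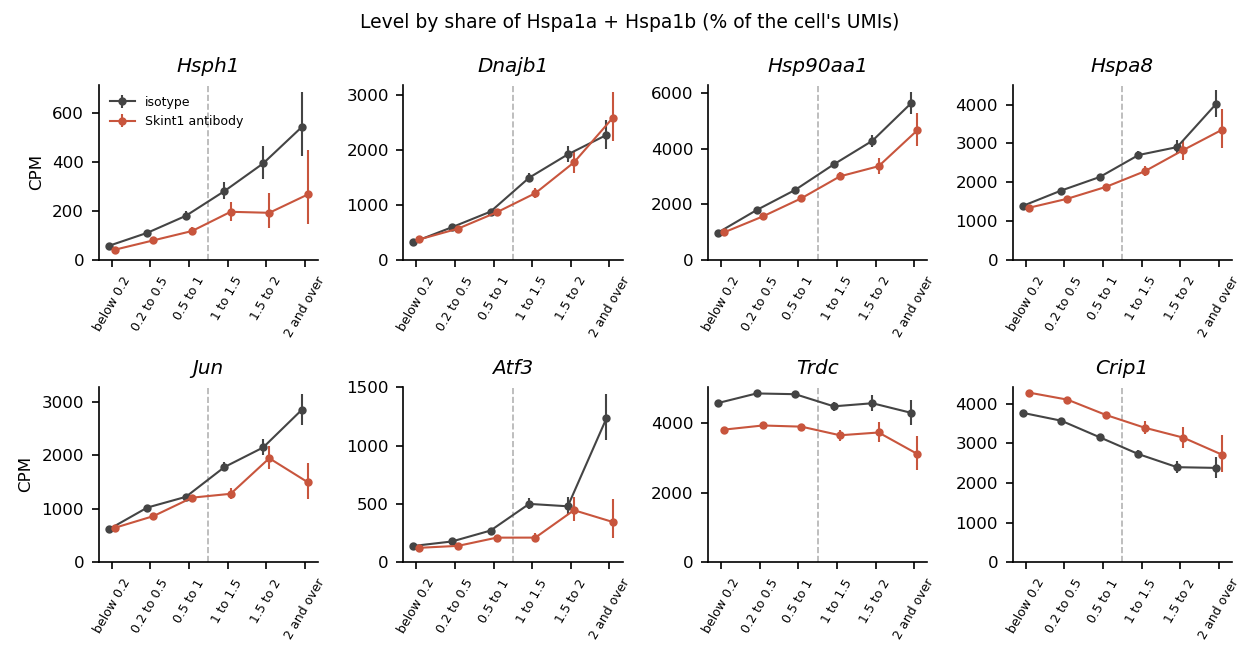
Levels in CPM (vertical axes, from 0) of 8 genes in 6 groups of DETCs by their Hspa1a and Hspa1b share (horizontal axes, % of the cell's UMIs), with 95% Poisson intervals, for the isotype (grey) and Skint1 antibody (red) libraries, and the limit for members dashed. The 4 chaperone genes climb over the groups under isotype, Trdc stays near its starting level up to 2%, and Crip1 declines.

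Hsp90aa1 and Dnajb1 transcripts were found in most members. After thinning to 2000 UMIs, Hsp90aa1 was found in 96.5% of isotype members, against 69.6% of low DETCs and 57.4% of αβ T cells, and in 94.1% of Skint1 antibody members, against 68.9% and 52.1%. Dnajb1 was found in 77.7% and 69.3% of members, 32.8% and 34.9% of low DETCs and 16.8% and 10.96% of αβ T cells. Hsph1 was found in 38.4% and 26.7% of members, 9.33% and 7.47% of low DETCs and 0.990% and 1.37% of αβ T cells. The αβ T cells had median depths of 3723 and 3817 UMIs before thinning. They may express these genes, so their shares bound the part of free RNA from above.

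The list of chaperones not tied to heat, with the subunits of the TRiC chaperonin, prefoldin and other co-chaperones, had 20 genes at 50 CPM or more, of which 0 were at least 2-fold higher or lower in either library, a count near the share over all genes given above and so no result about the list. Its median ratio was 0.04 and -0.02, close to that of all genes, and its summed level was 3104 and 3093 CPM in members and low DETCs of the isotype library and 3148 and 3094 CPM under Skint1 antibody. Pfdn5, a prefoldin subunit, had -0.15 (-0.26 to -0.05) and -0.11 (-0.24 to 0.02). Ptges3, the p23 cofactor of Hsp90, had 0.19 (0.00 to 0.38) and 0.17 (-0.08 to 0.41). Dnajc3, an Hsp40 of the endoplasmic reticulum, had 0.03 (-0.18 to 0.23) and 0.23 (-0.03 to 0.47).

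Genes of endoplasmic reticulum and integrated stress divided. Of 14 genes at that level under isotype and 15 under Skint1 antibody, 1 in each was at least 2-fold higher, Atf3, and the median was 0.09 and -0.05. Atf3, a transcription factor induced by many stresses, was at 559.9 CPM (522 to 599.7) in isotype members and 138 CPM in low DETCs, a log2 ratio of 2.02 (1.89 to 2.15), compared with 271 CPM (235 to 311) and 122 CPM under Skint1 antibody, 1.15 (0.93 to 1.36). Hspa5 (BiP), the Hsp70 of the endoplasmic reticulum, had 0.52 (0.45 to 0.60) and 0.50 (0.39 to 0.60), while its Hsp90 counterpart Hsp90b1 had -0.37 (-0.51 to -0.23) and -0.16 (-0.34 to 0.02) and the disulphide isomerase Pdia6 had -0.42 (-0.64 to -0.20) and -0.43 (-0.75 to -0.14). Ppp1r15a (GADD34), which ends the integrated stress response, had 0.70 (0.57 to 0.83) and 0.40 (0.22 to 0.58).

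Immediate early genes, which respond within minutes to activation and to tissue dissociation alike, were higher as a list. Of 27 genes at that level, 24 and 26 had a ratio above 0. The median was 0.41 and 0.34, against -0.04 and -0.03 over all genes. In each library 1 gene, Jun, was at least 2-fold higher. Jun was at 1964 CPM (1893 to 2037) and 610.2 CPM under isotype, 1.69 (1.62 to 1.75), and at 1439 CPM (1355 to 1528) and 641 CPM under Skint1 antibody, 1.17 (1.07 to 1.26). Fos, its partner in the AP-1 factor, was at 4777 and 3555 CPM and at 4985 and 3556 CPM, ratios of 0.43 (0.39 to 0.46) and 0.49 (0.44 to 0.54). Btg1, an antiproliferative gene, had 0.21 (0.16 to 0.26) and 0.34 (0.28 to 0.40), and Rgs2, a regulator of G protein signalling, had 0.28 (0.23 to 0.33) and 0.30 (0.22 to 0.36). Phlda1, which is outside the list, was at 251 and 81.9 CPM under isotype, 1.62 (1.43 to 1.80), and at 226 and 104 CPM under Skint1 antibody, 1.11 (0.87 to 1.35).

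Members made up a larger share of cells with many immediate early transcripts than of those with few, and the ratios of Hsph1, Dnajb1 and Hsp90aa1 were above 2-fold on either side of a division by those transcripts. The immediate early share of a cell was the part of its UMIs from Fos, Fosb, Jun, Junb and Egr1, and DETCs were divided at its median over low DETCs, 0.483% of UMIs under isotype and 0.471% under Skint1 antibody. Members made up 270 of 1915 DETCs (14.1%, 12.6 to 15.7) at or above it and 84 of 1629 (5.16%, 4.13 to 6.34) below it under isotype, and 156 of 2590 (6.02%, 5.14 to 7.01) and 64 of 2355 (2.72%, 2.10 to 3.46) under Skint1 antibody. At or above it, the log2 ratio of members over low DETCs was 2.17 and 1.99 for Hsph1, 1.87 and 1.52 for Dnajb1 and 1.71 and 1.37 for Hsp90aa1, with the isotype library given first. Below it, the ratios were 2.92 and 2.39 for Hsph1, 2.96 and 2.33 for Dnajb1 and 2.10 and 2.04 for Hsp90aa1. Other chaperones had lower ratios on both sides. Hspa8 had 0.80 and 0.62 at or above the median and 1.11 and 1.07 below it, Hsp90ab1 had 0.59 and 0.53 and then 0.86 and 0.40, and Dnaja1 had 0.36 and 0.39 and then 0.86 and 0.82. The chaperonin genes had 0.97 and 0.52 (Hspd1) and 0.76 and 0.30 (Hspe1) at or above the median and 0.52 and 0.77 (Hspd1) and 0.17 and 0.26 (Hspe1) below it, where both intervals of Hspe1 spanned 0. Fos had -0.13 (-0.17 to -0.09) and 0.02 (-0.03 to 0.07) at or above the median and 1.01 and 0.98 below it. Fos and Jun are among the genes that made the division. Low DETCs were also reweighted to the members over 5 bins of the immediate early share, of which Jun is itself a part. Jun, Atf3 and Phlda1 of the Skint1 antibody library then had 0.67, 0.63 and 0.76 and were no longer 2-fold higher. Under isotype the same genes stayed at least 2-fold higher in every alternative run, with lowest ratios of 1.18, 1.47 and 1.18. The part that the 37 °C steps had in either set of genes was not tested.

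NF-κB feedback genes had 8 members at 50 CPM or more, none 2-fold higher or lower, with a median of 0.16 and -0.04. Nfkbia, the inhibitor that NF-κB induces against itself, had 0.49 (0.42 to 0.55) and 0.34 (0.26 to 0.43), Tnfaip3 (A20) had 0.13 (-0.01 to 0.27) and 0.26 (0.07 to 0.45), and Rel had 0.22 (0.01 to 0.42) and -0.00 (-0.34 to 0.32). Of 5 oxidative stress genes at that level, 1 was 2-fold higher under isotype and 0 under Skint1 antibody, with medians of 0.28 and 0.03. It was Mt1, a metallothionein that binds zinc and is induced by metals and stress, at 305 and 101 CPM, 1.59 (1.42 to 1.76), under isotype and at 177 and 89.4 CPM, 0.98 (0.71 to 1.25), under Skint1 antibody. Txn1 and Prdx1, which scavenge oxidants, had ratios between -0.09 and 0.03.

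DETC identity genes had ratios close to those of all genes. Of 24 at 50 CPM or more, 0 were at least 2-fold higher or lower in either library, against 0.451% higher and 0% lower of all genes under isotype and 0.212% and 0.106% under Skint1 antibody, so the count of 0 is no result about these genes. Their median was -0.07 and -0.04, and that of all genes -0.04 and -0.03. The gate asked for Trdc, Cd3d, Cd3e and Cd3g in both groups, and the other 20 genes had a median of -0.06 and -0.00, from Trdv4 as the lowest to the activation marker Cd69 with 0.63 and 0.60. Cd3g was at 9186 and 9886 CPM under isotype and at 9851 and 9876 CPM under Skint1 antibody. Trdc was at 4495 and 4585 CPM, and at 3636 and 3819 CPM. Ctla2a, a cysteine protease inhibitor abundant in DETCs, was at 7951 and 7721 CPM, and at 6860.3 and 6568 CPM. Trdv4, which encodes the Vδ1 segment, was lower in members, at 852 and 1008 CPM, -0.24 (-0.33 to -0.16), and at 570.1 and 816 CPM, -0.52 (-0.66 to -0.38).

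Among the effector genes of DETCs, Xcl1 and Gzmb had unlike ratios in the libraries, a difference that was not tested. Of 11 effector genes at 50 CPM or more, these 2 were at least 2-fold higher in isotype members and 0 in Skint1 antibody members. Over the 11, the medians were 0.18 and 0.01, with 8 and 7 genes above 0. Xcl1, a chemokine that attracts XCR1+ dendritic cells, was at 652 CPM (611 to 695) in isotype members and 259.8 CPM in low DETCs, 1.33 (1.21 to 1.44), and at 95.7 CPM (74.9 to 121) and 107 CPM under Skint1 antibody, -0.17 (-0.53 to 0.18). Gzmb, the cytotoxic protease granzyme B, was at 303 and 105 CPM, 1.52 (1.36 to 1.69), and at 104 and 78.2 CPM, 0.41 (0.05 to 0.74), under Skint1 antibody, where the ratio fell below 0 with a mitochondrial limit of 5% (-0.52), in immediate early bins (-0.11) and at 3000 to 5000 UMIs (-0.80). Ctsw, a lymphocyte protease, and Areg, the epidermal growth factor relative amphiregulin, had ratios between -0.11 and 0.28. With cells thinned to 2000 UMIs, the isotype ratios were 0.87 for Xcl1 and 0.90 for Gzmb, under 2-fold. Thinning was not alone in this, as the isotype Gzmb ratio went down to 0.74 under another alternative.

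The UMIs of Xcl1 and Gzmb lay in few cells, as did those of Hspb1 above. The 10 members with the most UMIs of a gene held 77.6% of the Xcl1 UMIs and 67.2% of the Gzmb UMIs of isotype members, and 1 cell alone held 223 of 950 Xcl1 UMIs. The same 10-cell share was 6.23% for Hspa1a, 8.02% for Hspa8, 9.75% for Hsp90aa1, 13.2% for Dnajb1 and 17.5% for Hsph1. Of other effector genes, Areg (21.4%) and the cytokine gene Il13 (26.4%) were spread more like these. An Areg UMI was held by 45.5% of thinned isotype members, against 30.1% of low DETCs and 13.9% of αβ T cells. Of isotype members thinned to 2000 UMIs, 15.8% held an Xcl1 UMI, as did 15.8% of low DETCs. A Gzmb UMI was held by 16.1% (12.4 to 20.5) of them and by 8.46% (7.23 to 9.83) of low DETCs. Under Skint1 antibody the shares were 7.92% and 7.43% for Xcl1 and 12.4% (8.17 to 17.7) and 7.87% (6.93 to 8.89) for Gzmb. Of αβ T cells, 8.91% and 5.48% held a Gzmb UMI, and 2.97% and 5.48% held an Xcl1 UMI. Gzmc, another granzyme, had a ratio of 0.04 (-0.13 to 0.20) under isotype and 0.86 (0.64 to 1.07) under Skint1 antibody, where 1 cell held 180 of 203 UMIs. Cxcl2, a neutrophil chemokine with ratios of 1.15 (0.95 to 1.35) and 0.93 (0.68 to 1.17), had 84.2% and 92.1% of its member UMIs in 10 cells, and among DETCs with 3000 to 5000 UMIs its isotype ratio was -0.24. Atf3 had 26.7% and 50.5% and Mt1 50.1% and 75.9%.

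G0s2, an inhibitor of the lipase ATGL that was given as a marker of these cells, was higher in members of the isotype library alone and was under 50 CPM. G0s2 had 73 UMIs in isotype members, 50.1 CPM (39.3 to 63.0) against 21.3 CPM in low DETCs, a log2 ratio of 1.23 (0.81 to 1.64), and 9 UMIs in Skint1 antibody members, 11.96 CPM (5.47 to 22.7) against 19.5 CPM, a ratio of -0.71 (-1.86 to 0.24). Of the isotype UMIs, 82.2% lay in 10 members, and 4.399% of thinned isotype members and 2.48% of Skint1 antibody members held one. Of the other given markers, Hsph1 and Dnajb1 were higher in members of both libraries.

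**Figure D5:**
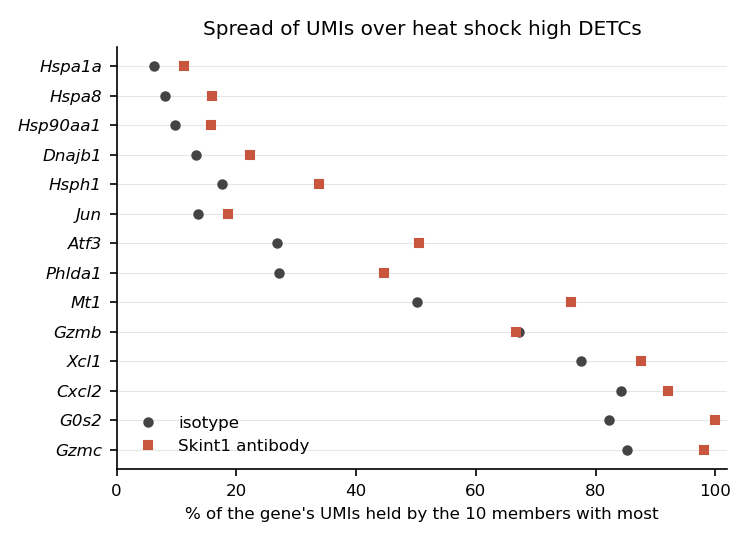
The percentage of a gene's UMIs among heat shock high DETCs that the 10 members with the most of them held (horizontal axis), for 14 genes in the isotype (grey circles) and Skint1 antibody (red squares) libraries. The 5 chaperone genes plotted lie at 6.23% to 33.8%, whereas Gzmb, Xcl1, Cxcl2, G0s2 and Gzmc lie at 66.7% to 100%. The 100% is that of G0s2 under Skint1 antibody, whose 9 UMIs fit in 10 members whatever their spread.

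Lower ratios were small. Of all genes 0% under isotype and 0.106% under Skint1 antibody were at least 2-fold lower, and 0 of the listed genes at 50 CPM or more were. The 10 genes with the lowest ratios in both libraries were Larp4b, Sf3b3, Foxo1, Bola3, Rimbp2, Fut8, Pdia6, Iqgap2, Chrac1 and Usp9x, with ratios from -0.73 to -0.40 and 26 to 196 UMIs in members. Larp4b, an RNA-binding protein, had -0.57 (-0.98 to -0.18) and -0.73 (-1.36 to -0.17), the splicing factor Sf3b3 had -0.55 (-0.96 to -0.17) and -0.72 (-1.33 to -0.17), and Foxo1, a transcription factor of quiescent T cells, had -0.50 (-0.89 to -0.12) and -0.55 (-1.14 to -0.01). Lage3, Coro2a and Hmgn2 were at least 2-fold lower under Skint1 antibody alone, on 17 to 26 member UMIs, and had isotype ratios of -0.18 to -0.05. With a limit of 0.5% no gene was 2-fold lower in that library, and Coro2a had -0.29, or -0.48 with a limit of 2%, -0.66 after thinning and -0.90 without cells that held an Xcl1, Gzmb or Gzmc UMI. Ribosomal protein genes were lower as a body, with 1 of 75 above 0 under isotype and 0 under Skint1 antibody. Their medians were -0.14 and -0.17, against -0.04 and -0.03 over all genes. Rpl39 had -0.16 (-0.20 to -0.12) and -0.18 (-0.23 to -0.13). The 13 mitochondrial genes had medians of -0.04 and -0.02, 28 proteasome genes -0.03 and -0.00, and 8 survival and death genes -0.03 and -0.00. Among the last, Bax had -0.04 (-0.20 to 0.11) and -0.16 (-0.38 to 0.04) and Cdkn1a (p21) had 0.26 (0.09 to 0.42) and 0.14 (-0.09 to 0.36). Of 18 cell cycle genes 2 reached 50 CPM under isotype and 1 under Skint1 antibody. Pcna had 0.08 (-0.24 to 0.40) and 0.23 (-0.22 to 0.64), and Stmn1 had 98 UMIs and 0.06 under isotype and 12 UMIs and -1.70 under Skint1 antibody.

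Summed markers of other cell types were lower in members than in low DETCs for 5 of 7 lists under isotype and for 4 under Skint1 antibody. Under isotype the neutrophil and melanocyte lists were the others. Under Skint1 antibody the Langerhans and neutrophil lists were higher and the melanocyte list was at 0 in both groups. Neutrophil and melanocyte sums, at most 4.80 CPM in members, rest on very few UMIs, and the tally of lists is a description only. The 11 keratinocyte markers summed to 44.6 and 54.4 CPM in members and low DETCs of the isotype library and to 66.4 and 71.1 CPM under Skint1 antibody, against 1794 and 2629 CPM in free RNA. Langerhans and myeloid markers summed to 54.2 and 63.0 CPM, and to 61.1 and 55.1 CPM, with 3 and 5 of 10 markers at 0 in members, Cd207, Itgam and Csf1r in both. NK and innate lymphoid markers summed to 98.8 and 119 CPM, and to 85.1 and 108 CPM, with 3 and 2 of 8 at 0. Dermal γδ T markers summed to 44.6 and 89.2 CPM, and to 65.1 and 69.7 CPM, with 5 and 4 of 11 at 0. Il17a, their defining cytokine, had 0 UMIs in isotype members (0 to 2.53 CPM) against 19.9 CPM in low DETCs, and 9.30 and 9.18 CPM under Skint1 antibody. Neutrophil markers summed to 4.80 and 2.03 CPM, and to 3.99 and 3.37 CPM, with 3 and 4 of 5 at 0. Melanocyte markers summed to 0.686 and 0.254 CPM, and to 0 and 0 CPM. The αβ T list summed to 998 and 1139 CPM, and to 893 and 1008 CPM, with 6 and 5 of 9 at 0, of which the gate fixed Trac, Cd4, Cd8a and Cd8b1, and only Trbc2 reached 50 CPM, with -0.19 (-0.27 to -0.11) and -0.18 (-0.29 to -0.07).

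Members of the Skint1 antibody library were then set beside those of the isotype library. Of 2855 genes at 50 CPM or more over members, 0 (0%) were at least 2-fold higher under Skint1 antibody and 10 (0.35%) at least 2-fold lower, namely Xcl1, Atf3, Hspa4l, Coro2a, Hmgn2, Tnfrsf9, Hspb1, Ptpn6, Mctp2 and Gzmb. Of these, Xcl1 had the lowest ratio, -2.77 (-3.13 to -2.42), followed by Tnfrsf9 (4-1BB, a costimulatory receptor) with -1.59 (-2.15 to -1.07), Gzmb with -1.55 (-1.92 to -1.20), the actin-binding Coro2a with -1.51 (-2.35 to -0.76) and Ptpn6 (SHP-1, a phosphatase that restrains receptor signalling) with -1.23 (-1.70 to -0.80). Low DETCs showed the same direction for these genes with -1.27 (-1.38 to -1.17) for Xcl1, -0.81 (-0.95 to -0.68) for Tnfrsf9, -0.43 (-0.57 to -0.29) for Gzmb, -0.33 (-0.50 to -0.16) for Coro2a and -0.92 (-1.05 to -0.79) for Ptpn6. Several of these calls depended on the cells taken. Without cells that held an Xcl1, Gzmb or Gzmc UMI, Tnfrsf9 had -0.61 and Coro2a -0.88 between members. Gzmb had -0.83 after thinning, -0.88 with a limit of 0.5% and 0.69 with a limit of 2%, Coro2a had -0.80, -0.76 and -0.00 in the same cases, and Atf3 had -0.88 after thinning, -0.77 with the 0.5% limit, -0.69 with the 5% mitochondrial limit, -0.95 with no upper limit on genes and -0.93 at 3000 to 5000 UMIs. Ptpn6 had -0.94 among DETCs with 3000 to 5000 UMIs, whereas Xcl1 lay between -5.28 and -2.33 under every alternative run. The highest ratios belonged to Dmtf1, Hist1h2bg, Hist1h2ac, Cnot4 and Stx16, from 0.77 to 0.88 on 54 to 95 UMIs in Skint1 antibody members. The intervals of all 5 lay above 0, as for Dmtf1, a cell cycle transcription factor, with 0.88 (0.31 to 1.44). These genes were picked as the highest of 2855 by this same ratio, so intervals above 0 lend them no support. Over the alternatives run, Cnot4 lay between -0.26 and 1.31. Dmtf1 (0.64 to 1.26), Hist1h2ac (0.58 to 1.03), Hist1h2bg (0.26 to 1.01) and Stx16 (0.32 to 1.09) stayed above 0. The histone genes have near-identical copies, so their counts are uncertain.

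Chaperone levels per member were a little lower under Skint1 antibody. Of 18 HSF1 chaperone genes at that level, 2 (Hspa4l and Hspb1) were at least 2-fold lower, 1 had a ratio above 0, and the median was -0.27, against -0.02 over all 2855 genes. Hsph1 went from 333 CPM over isotype members to 201 CPM, or -0.73 (-1.003 to -0.46), which compares with -0.46 (-0.65 to -0.27) in low DETCs. Dnajb1 had -0.22 (-0.33 to -0.12) in members, or 0.18 with the 2% limit, and 0.21 (0.14 to 0.28) in low DETCs, and Hsp90aa1 had -0.26 (-0.33 to -0.19) and 0.02 (-0.02 to 0.06). Atf3 had -1.05 (-1.27 to -0.82) in members and -0.18 (-0.29 to -0.06) in low DETCs, and Jun had -0.45 (-0.55 to -0.35) and 0.07 (0.02 to 0.12). Members of the Skint1 antibody library had fewer UMIs than those of the isotype library, and the treatment cannot be told apart from the library in any of these values.

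The members' part of all DETC transcripts was larger for chaperone genes than for all genes. Isotype members held 9.94% of all DETC UMIs but 28.9% of the Hsph1, 27.7% of the Dnajb1 and 22.9% of the Hsp90aa1 UMIs. Skint1 antibody members held 4.02% of all UMIs and 12.5%, 11.2% and 9.60% of the same genes. For Trdc the parts were 9.56% and 3.80%. The rule that chose the members fixed a large part for Hspa1a (41.3% and 22.8%) and Hspa1b (40.4% and 24.1%). Over all DETCs the Skint1 antibody over isotype ratio was -0.57 (-0.59 to -0.54) for Hspa1a and -0.55 (-0.57 to -0.52) for Hspa1b. Dnajb1 had -0.22 (-0.26 to -0.18) over all DETCs and -0.02 (-0.06 to 0.03) with members left out, and Hsph1 had -0.83 (-0.93 to -0.72) and -0.62 (-0.74 to -0.50). Both are descriptions, since members were rarer under Skint1 antibody and were chosen by a readout that these genes moved with.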

How the data were processed

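Per the submitters' processing notes and the study's methods, the authors aligned 10x 3' v3 reads to mm10 (GRCm38) with CellRanger 3.0.2 and deposited raw UMI counts for all barcodes, empty droplets included. Each group's counts were pooled here within a library and scaled by their sum, without a pseudocount (pandas 2.3.3, scipy 1.17.1 and numpy 2.4.6 under Python 3.11.15). Ratios were counted at 50 CPM or more over the groups compared, and past 2-fold in either direction. Doublet scores came from Scrublet in scanpy 1.11.5, whose own threshold marked 1 of 4709 and 0 of 6425 barcodes and so had not worked. Barcodes of top score (177 and 330) were marked at a rate of 0.8% per 1000 barcodes, and kept except in 1 alternative. The members and gene lists were chosen with earlier results of these data known, and the Hspa1a and Hspa1b share that chose the members is itself a readout. Genes named were the 5 markers given, up to 3 most abundant of each list, the 10 most different in each direction in both libraries and the 5 most different between libraries in each direction. Others were chosen after their values were seen, and 1 gene first listed among the HSF1 chaperones is not reported here. Gene positions came from GENCODE and upstream windows from RefSeq, which matched 19 of 23 HSF1 chaperone genes. The ratios were tried on simulated data with 200 genes changed by a log2 ratio of 1.5, beyond the 2-fold limit. They recovered 199 (99.5%) under isotype, among 2885 genes, and 200 (100%) under Skint1 antibody, among 2827 genes, with 0 other genes past 2-fold. The simulated counts held counting error alone, without the uneven spread over cells seen for genes such as Xcl1. The simulation thus checks the calculation and gives no rate of false calls in these data.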

Additional observations from a re-analysis of the deposited data

Results flagged for a closer look

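Xcl1 and G0s2 were on opposite sides of 0 in the libraries. The log2 ratio of heat shock high over low DETCs was 1.33 for Xcl1 under isotype and -0.17 under Skint1 antibody, and 1.23 and -0.71 for G0s2. The difference between the libraries was not tested, since each has 1 library, and the Skint1 antibody intervals of both genes span 0. Over the alternatives run, the Xcl1 ratio lay between -3.03 and 0.08 under Skint1 antibody and between 0.87 and 1.52 under isotype. In isotype members, 10 cells held 77.6% of the Xcl1 and 82.2% of the G0s2 UMIs, and the part of these cells in the opposite signs was not tested.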

How the results depend on the processing

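The share of heat shock high DETCs was lower under Skint1 antibody under every alternative run. It was 25.2% and 16.7% (difference -8.47 points) with a limit of 0.5% and 1.02% and 0.324% (-0.692) with a limit of 2%, which leaves 36 and 16 members. The isotype share was 11.3% with a mitochondrial limit of 5%, and among cells of both groups without a Xcl1, Gzmb or Gzmc UMI it was 8.74% (difference -4.35). The counts of genes past 2-fold moved more. Under isotype, genes at least 2-fold higher numbered 44 with the 2% limit and 32 at 10 CPM or more, and genes at least 2-fold lower numbered 139 and 37 in the same cases, 5 with the 5% mitochondrial limit, 7 with no upper limit on genes, 4 matched on immediate early bins, 2 without cells holding those effector UMIs and 3 at 3000 to 5000 UMIs. Under Skint1 antibody, the higher genes numbered 3 with the 0.5% limit, 102 with the 2% limit, 10 when a Trdv4 or Tcrg-V5 UMI was asked for, 33 at 10 CPM, 3 against all DETCs below 1% and 3 in immediate early bins. Its lower genes numbered 0 and 391 with those limits, 1 after thinning, 39 with the 5% mitochondrial limit, 8 with no upper limit, 5 without doublets, 5 with the V segment UMI, 129 at 10 CPM and 7 at 3000 to 5000 UMIs. Between members, the higher genes numbered 226 with the 2% limit, 17 with the 5% limit on mitochondrial UMIs, 86 at 10 CPM, 1 with cells weighted equally, 4 without cells holding effector UMIs and 2 at 3000 to 5000 UMIs. The lower genes numbered 3 and 392 with the 0.5% and 2% limits, 4 after thinning, 44 with the mitochondrial limit, 5 with no upper limit, 193 at 10 CPM and 20 at 3000 to 5000 UMIs. The 2% limit rests on fewer cells and 10 CPM on fewer UMIs per gene, and the cause of the other shifts was not tested. Of 2694 single-gene values, 2262 stayed inside the counting interval of the reported value and 432 fell outside it. The sign changed in 213, of which 136 stayed inside that interval and 77 fell outside it. Of genes past 2-fold, Cxcl2 under isotype (-0.24 at 3000 to 5000 UMIs) and Gzmb between members (0.69 with the 2% limit) changed sign. Among genes not past 2-fold, under Skint1 antibody Mt1 (-2.22), Sf3b3 (0.37) and Foxo1 (0.44) with the 2% limit and Cxcl2 (-0.87) with the 5% mitochondrial limit changed sign, as did Larp4b (0.15) under isotype with the 2% limit. Fos had -0.18 and -0.09 in immediate early bins, and Gzmb under Skint1 antibody had -0.52 with the 5% mitochondrial limit, -0.11 in immediate early bins and -0.80 at 3000 to 5000 UMIs. Under all of these, Hsph1, Dnajb1 and Hsp90aa1 stayed at least 2-fold higher in members of both libraries. Jun, Atf3 and Phlda1 under Skint1 antibody came under 2-fold in several of them, down to 0.67, 0.63 and 0.76, and Hspa8 under isotype down to 0.80. Leaving out the effector cells and the range of 3000 to 5000 UMIs were chosen after seeing the data. No paired analysis was possible because each treatment has 1 library and no test was made.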

Other observations

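Cells that the gate left out for depth or mitochondrial content also held heat shock high DETCs. Among DETCs with more than 2500 genes, 12 of 312 (3.85%, 2.003 to 6.62) under isotype and 8 of 287 (2.79%, 1.21 to 5.42) under Skint1 antibody passed the 1% limit. Among those with more than 12% mitochondrial UMIs, at median depths of 1795 and 1788.5 UMIs, 9 of 78 (11.5%, 5.41 to 20.8) and 7 of 64 (10.9%, 4.51 to 21.2) did, with overlapping intervals.

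The Gzmb and Xcl1 ratios of isotype members were higher among DETCs with few immediate early transcripts, where 10 of 84 members held all 219 Gzmb UMIs (121 of them in 1 cell) and 25 held the 490 Xcl1 UMIs (223 of them in 1 cell). Among isotype DETCs below the median immediate early share of low DETCs, Gzmb was at 622 CPM in members and 70.6 CPM in low DETCs, a log2 ratio of 3.14 (2.88 to 3.40), and Xcl1 at 1391 and 221.5 CPM, 2.65 (2.49 to 2.81). At or above that median, Gzmb had 0.53 (0.30 to 0.76) and Xcl1 0.48 (0.33 to 0.64). Cxcl2 went the other way under isotype, with 1.00 (0.79 to 1.22) at or above the median and -0.45 (-1.35 to 0.32) below it. Under Skint1 antibody the ratios were 1.21 (0.26 to 2.02) for Gzmb, on 13 UMIs, and 0.99 (0.26 to 1.65) for Xcl1, on 20 UMIs, below the median, and -0.10 (-0.48 to 0.27) and -0.79 (-1.22 to -0.39) at or above it.

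Metallothionein 2 followed Mt1 under isotype, with Mt2 at 43.9 CPM in members (64 UMIs) and 9.02 CPM in low DETCs, a log2 ratio of 2.28 (1.77 to 2.79), of which 10 cells held 78.1%. Under Skint1 antibody Mt2 had 6 UMIs in members and a ratio of -0.27 (-1.74 to 0.90).

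Egr1, an immediate early transcription factor downstream of receptor signalling, was at 479 and 253 CPM in members and low DETCs of isotype mice and at 603 and 373 CPM under Skint1 antibody, so that unlike Jun and Atf3 it was higher in members of the Skint1 antibody library than in those of the isotype library, with a log2 ratio of 0.33 (0.16 to 0.51). Egr1 was also higher in low DETCs of that library, with 0.56 (0.48 to 0.63).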
